A study of Mus musculus with 4 samples.

Results

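The myogenic regulators and fusion genes are 6 genes picked by symbol, Myf5, Myod1, Myog, Myf6, Mymk and Mymx, out of 32286 features in the libraries of days 4, 5 and 6 and 32287 at day 11. They were followed in gastruloids, aggregates of mouse embryonic stem cells that form many tissues of the early embryo in a dish. All samples came from the wild type Zx1 line and received a pulse of the Wnt agonist CHIR99021. The cardiogenic factors bFGF, VEGF and ascorbic acid joined the medium at day 4 and were left out again 3 days later, so the day 11 cells were taken after their withdrawal. Each of the 4 days is 1 droplet library of pooled aggregates, so there are no replicates, no test was made, and every interval below is an exact 95% interval that covers counting error only. Where a count of 0 is given a limit, it is that of 3 counts, also for counting error only. After filtering, 6555, 6457, 5254 and 7850 cells remained in the order of days, with median depths of 24199, 28143, 24736.5 and 11419 unique molecular identifiers (UMIs, each standing for 1 captured RNA molecule).

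Skeletal muscle is made by a small family of basic helix-loop-helix transcription factors. Myf5 and Myod1 commit mesodermal progenitors to the muscle fate, in some places together with Myf6 (also called Mrf4), and Myog drives committed myoblasts to leave the cell cycle and differentiate. Differentiating myoblasts then fuse into multinucleated fibres, for which they need Mymk (myomaker), a membrane protein that makes cells competent to fuse, and Mymx (myomixer), a small membrane peptide that acts with it to open the fusion pore. In the embryo Myf5 is among the earliest of these factors in the somites, while the muscles of the head reach Myf5 and Myod1 through other upstream factors such as Tbx1 and Msc. The regulators bind as dimers to the E-box, the letters CANNTG.

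In the GRCm38 build Myf5 (ENSMUSG00000000435, chr10:107482908-107486134, minus strand, 3 exons) and Myf6 (ENSMUSG00000035923, chr10:107492853-107494737, minus strand, 3 exons) are neighbours, with 6718 bases and 0 annotated genes between them. Myod1 (ENSMUSG00000009471) is at chr7:46376474-46379099 on the plus strand with 3 exons, and Myog (ENSMUSG00000026459) at chr1:134289989-134292548 on the plus strand with 3 exons. Mymk (ENSMUSG00000009214) is at chr2:27061636-27072179 on the minus strand with up to 5 exons, and Mymx (ENSMUSG00000079471) at chr17:45600971-45602102 on the minus strand with up to 2 exons. No annotated gene overlapped any of them.

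Promoter sequence was at hand for 2 of the 6 genes, which happen to stand at the early and the late end of the regulator series and are shown for that contrast. Both are 250 bases just before the RefSeq start in GRCm38.p6, read 5′ to 3′ along the gene, and capitals mark every E-box (CANNTG, a pattern that reads the same on both strands). The Myf5 window is chr10:107486135-107486384 (minus strand) and the Myog window is chr1:134289754-134290003 (plus strand).
Myf5: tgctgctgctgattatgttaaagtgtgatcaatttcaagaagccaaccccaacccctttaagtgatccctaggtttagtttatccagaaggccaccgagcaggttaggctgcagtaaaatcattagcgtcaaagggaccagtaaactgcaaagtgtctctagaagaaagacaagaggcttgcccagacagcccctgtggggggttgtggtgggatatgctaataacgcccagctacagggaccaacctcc
Myog: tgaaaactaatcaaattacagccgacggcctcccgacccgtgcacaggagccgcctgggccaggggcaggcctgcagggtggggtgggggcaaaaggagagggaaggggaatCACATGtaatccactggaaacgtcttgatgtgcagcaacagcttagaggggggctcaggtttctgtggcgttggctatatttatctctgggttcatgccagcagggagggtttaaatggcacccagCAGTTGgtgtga
The Myog window held 2 E-boxes, CACATG from base -138 to -133 and CAGTTG from base -12 to -7 before the RefSeq start, and the Myf5 window held 0. GENCODE starts Myog further upstream than RefSeq does, so the last 15 bases of that window, CAGTTG included, lie inside the gene span given above. Of 32851 RefSeq windows of the same length, 21753 (66.2%) held the letters CANNTG and 3658 (11.1%) held CAGTTG on either strand, so an E-box is a common feature of such a window. Sequences of Myod1, Myf6, Mymk and Mymx were not used here.

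Over the whole libraries, Myf5 was above its earlier level at day 6, while among the sampled days Myod1 and Myog were so only at day 11. Myf6 was above its earlier level at day 6 as well, on 7 UMIs. Levels are given as UMIs of the gene per 1000000 UMIs of the library (CPM); a UMI counts a molecule and not its length, so levels are compared only within a gene. Myf5, the early determination factor, had 3, 7, 44 and 208 UMIs at days 4, 5, 6 and 11. These are 0.0155, 0.0352, 0.293 (0.213 to 0.394) and 1.83 (1.59 to 2.10) CPM. The level was 8.34 times higher at day 6 than at day 5 (3.73 to 21.9) and 6.24 times higher at day 11 than at day 6 (4.49 to 8.84), while days 4 and 5 did not differ beyond counting error.

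Myod1, the second determination factor, had 10, 7 and 1 UMIs at days 4, 5 and 6, and 1309 at day 11. Its day 11 level was 11.5 CPM (10.9 to 12.2), and the ratio to day 6, 1727 (309 to 68272), rests on that 1 UMI. Myog, the differentiation factor, went from 5, 3 and 3 UMIs to 3588 UMIs, or 31.6 CPM (30.5 to 32.6) at day 11. Its day 11 to day 6 ratio of 1578 (540 to 7656) rests on 3 UMIs of day 6. For both genes each of the 3 early days held 10 UMIs or fewer, and day 11 stood far apart from them. No library lay between days 6 and 11, so the days do not resolve when in that interval each gene rose, or in which order. Myf6, a regulator that persists in adult fibres, was scarce, with 1, 1, 7 and 16 UMIs over the 4 days. Its day 6 level was 9.29 times that of day 5 (1.19 to 419), a ratio that rests on 7 UMIs and 1 UMI. Its day 11 level, 0.141 CPM (0.0804 to 0.229), was 3.02 times that of day 6 (1.17 to 8.67).

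The fusion genes moved in the same direction from each day to the next, but only Mymx had an early level as high as its day 11 level. Mymk had 0, 17, 0 and 778 UMIs on the 4 days, or 0.0854 CPM (0.0498 to 0.137) at day 5 and 6.84 CPM (6.37 to 7.34) at day 11. By the interval limits, Mymk was at least 4.02 times higher at day 5 than at day 4. It was at most 0.322 times as high at day 6 as at day 5, and at least 278 times higher at day 11 than at day 6. Mymx had 306, 1945, 63 and 956 UMIs, or 1.58 (1.41 to 1.76), 9.77 (9.34 to 10.2), 0.420 (0.323 to 0.537) and 8.41 (7.88 to 8.96) CPM. It was 6.20 times higher at day 5 than at day 4 (5.49 to 7.01), 0.0430 times as high at day 6 as at day 5 (0.0329 to 0.0552) and 20.02 times higher at day 11 than at day 6 (15.5 to 26.3). Mymx therefore ran at its highest library level at day 5, when Myf5, Myod1, Myog and Myf6 had 7, 7, 3 and 1 UMIs. The plot of levels by day shows the early Mymx level beside the late rise of Myod1, Myog and Mymk.

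**Figure D1:**
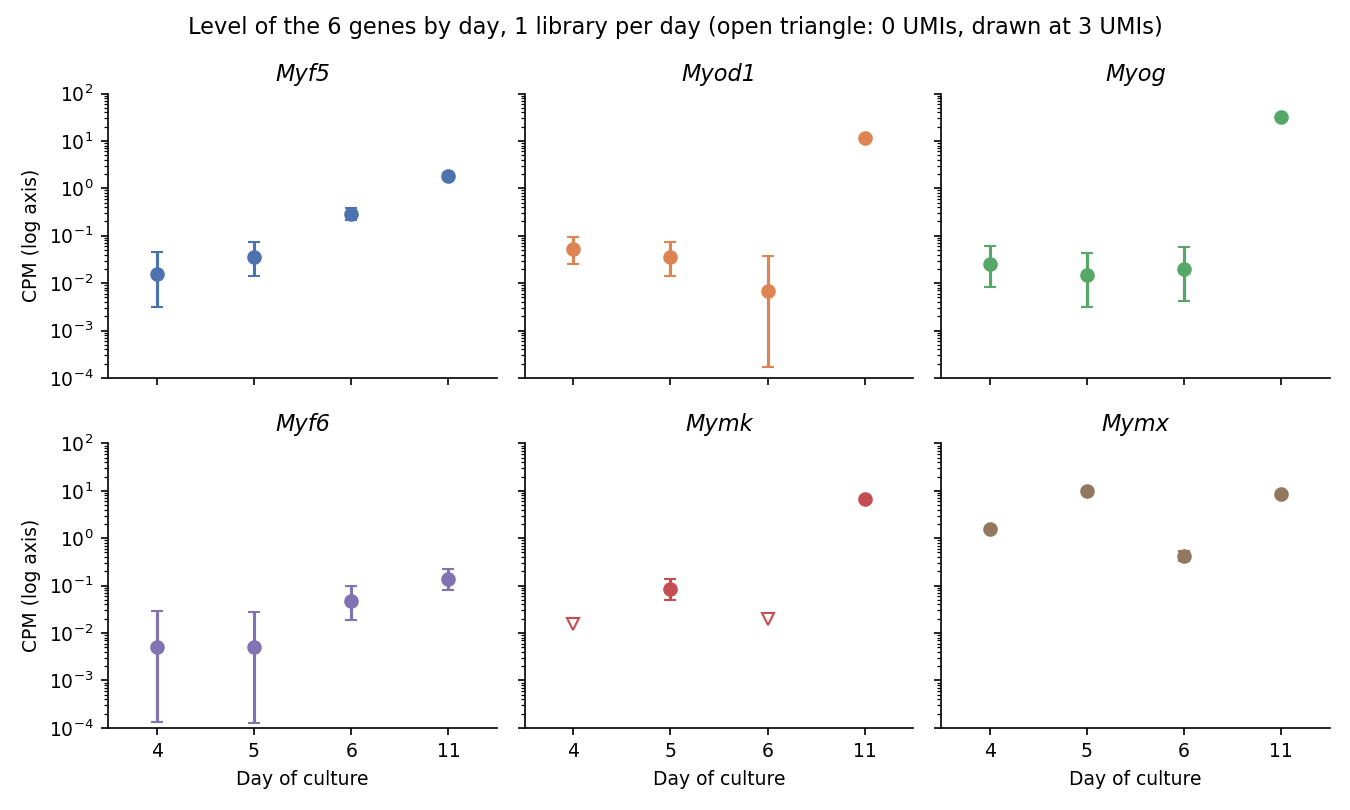
Level of each of the 6 genes (CPM, log axis) against the day of culture, 1 library per day; points are library levels, bars exact 95% counting intervals, and open triangles mark 0 UMIs, drawn at 3 UMIs. Myod1, Myog and Mymk stand apart at day 11, Myf5 is already higher at day 6, and Mymx is at 9.77 CPM at day 5 and 0.420 CPM at day 6.

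The early Mymx was highest in cells that resembled the epiblast, the pluripotent tissue of the early embryo, and no group of days 4, 5 or 6 was skeletal myoblast-like. Cell groups were formed by clustering each library without the 6 genes, and were named from marker lists that do not hold them. At day 4, an epiblast-like group of 243 cells led by Dppa5a, Tdh and Klf2 held 267 of the 306 Mymx UMIs, at 33.9 CPM (29.9 to 38.2) and in 113 cells (46.5%). The second epiblast-like group of day 4, led by Pim2, Pou5f1 and L1td1, held 24 UMIs in 17 of 211 cells. The remaining groups of that day were at 0.604 CPM or less.

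At day 5 the epiblast-like group of 347 cells again stood highest, with 854 UMIs, 73.5 CPM (68.7 to 78.6) and 232 Mymx-holding cells (66.9%). Its leading genes were Dppa5a, Utf1 and Mylpf, the last a fast skeletal myosin light chain. An endoderm-like group of 176 cells led by Tnfrsf12a, Rgcc and Cldn6 followed at 39.4 CPM (33.5 to 46.1), and an unnamed group of 468 cells led by Actc1, Rgcc and Krt15 was at 21.5 CPM (18.9 to 24.4). Of the 16 groups of day 5, these were the 3 above the endothelium-like group, taken as a type that should lack Mymx, which itself held 97 UMIs in 63 of 362 cells (17.4%, 7.59 CPM). The median depth was 30093 UMIs in the epiblast-like and 31374.5 in the endothelium-like group. Groups with shares at or below 17.4% were not read as expressing Mymx, although that share is no floor of the library, since the endoderm-like group of 448 cells led by Spink1, Emb and Ttr held 27 UMIs in 20 cells (4.46%, 1.77 CPM). Over the whole library 973 of 6457 cells had a Mymx UMI (15.1%, 14.2 to 16.0), the 232 epiblast-like cells among them. Mymx UMIs did not keep 1 ratio to the epiblast markers: there were 11.9 Mymx UMIs per 1000 UMIs of those markers in the epiblast-like group and between 18.0 and 1593 in the other groups of day 5.

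At day 6 the epiblast-like group numbered 20 cells and held 8 Mymx UMIs (8.05 CPM, 3.47 to 15.9), still the highest group level of that day. Few early cells with a Mymx UMI held another of the genes. Of the 973 at day 5, which take in the groups not read as expressing Mymx, 963 had Mymx alone, 7 also had Mymk, 2 also had Myf5 and 1 also had Myog. At day 6 all 54 Mymx holders had Mymx alone. The 17 Mymk UMIs of day 5 were in 17 cells, and 10 of these held Mymk alone. The groups highest for Mymx at day 5 were also highest for Mymk. The endoderm-like group led by Tnfrsf12a held 3 Mymk UMIs, the unnamed group led by Actc1 held 4 and the epiblast-like group held 2.

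**Figure D2:**
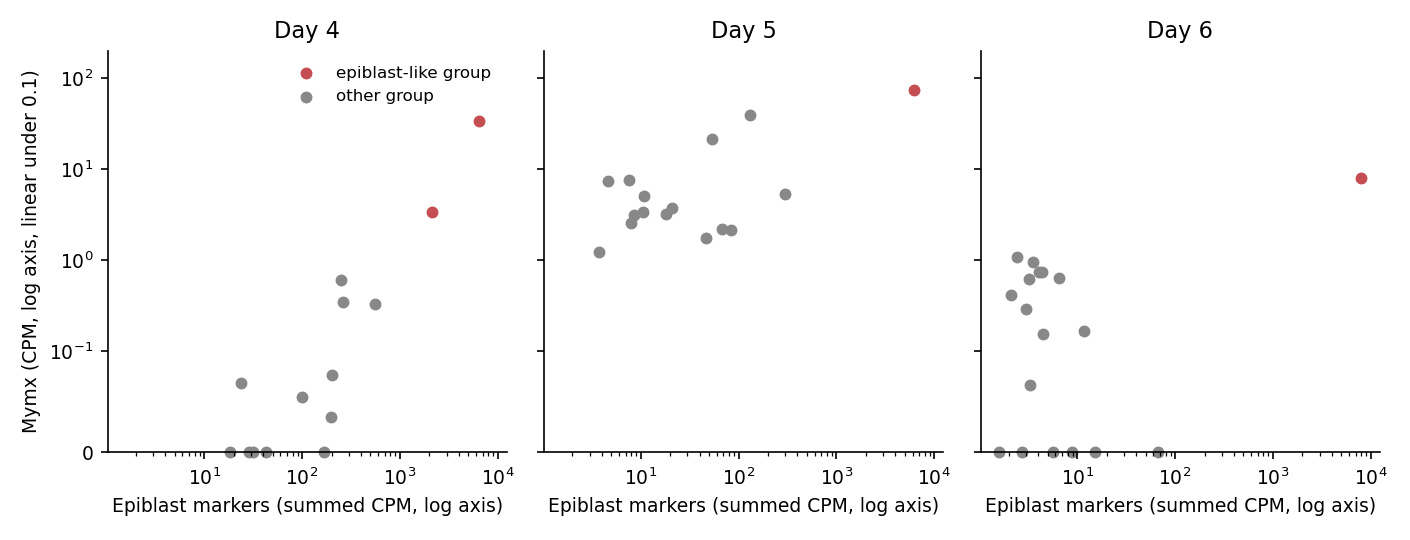
Mymx level (CPM, log axis, linear under 0.1) against the summed level of 7 epiblast markers (CPM, log axis) in each cell group of days 4, 5 and 6; each point is 1 group and red points are epiblast-like groups. On each day the group with the highest epiblast marker level also has the highest Mymx level, at 33.9, 73.5 and 8.05 CPM.

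At day 6, Myf5 was the regulator found in the most cells, and it was most frequent in a somite-like group. The somitic mesoderm-like group of 388 cells, led by Meox1, Ccne1 and Snhg4, held 25 of the 44 Myf5 UMIs, at 2.08 CPM (1.34 to 3.06) and in 16 cells (4.12%, 2.38 to 6.61). An unnamed group of 408 cells led by the mitotic genes Ube2c, Cdc20 and Hmmr held 9 UMIs in 6 cells at 0.603 CPM (0.276 to 1.15). The remaining 10 UMIs were spread over 6 groups with at most 3 each. The 362 endothelium-like cells of day 6 held 0 (median depths 32710.5 UMIs there and 30174 in the somitic group), which allows a share of up to 0.829%. The somitic share was above that limit. In all, 30 cells of day 6 held Myf5 (0.571%, 0.386 to 0.814), the highest count in a cell was 4 UMIs, and 10 cells held 2 or more.

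Almost no cell of day 6 held more than 1 of the 6 genes. A UMI of at least 1 gene was found in 92 of 5254 cells (1.75%), of which 54 held Mymx alone, 27 Myf5 alone, 4 Myf6 alone, 3 Myog alone and 1 Myod1 alone. The only pair was Myf5 with Myf6, the chromosome 10 neighbours, in 3 cells. Myf6 was thus found in 3 of 30 Myf5 holders (10%, 2.11 to 26.5) and in 4 of 5224 other cells (0.0766%, 0.0209 to 0.196). The counts are small, but these intervals do not overlap. The 27 cells with Myf5 alone had a median depth of 30856 UMIs and the cells with none of the genes 24646, and the part of depth in this was not tested. Myod1 and Myog were held by 0 of the 30 Myf5 cells, which allows a share of up to 10% for each, so that a rarer co-detection was not detectable.

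By day 11 all 6 genes had gathered in 2 groups. These were a group of 221 cells led by Msc, Car3 and Itga4, in which 6 of 17 skeletal myoblast markers were raised, and a group of 69 cells led by Mylpf, Tnnc2 and Acta1, in which 14 of 17 were raised. Both were called skeletal myoblast-like, and they make up 290 of 7850 cells. The Msc-led group holds a transcription factor of head muscle precursors as its first gene, and the Mylpf-led group is led by contractile genes. Pax7, counted below among the upstream factors of trunk and limb muscle, was also among the leading genes of the Msc-led group. The origin of these cells was not tested.

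Myf5 was higher in the Msc-led group, at 35.3 CPM (30.2 to 41.1) against 10.0 CPM (5.61 to 16.5) in the Mylpf-led group, and was held by 39.4% and 10.1% of their cells. Each of the other 5 genes was higher in the Mylpf-led group. Myod1 was at 109 CPM (100.3 to 119) in the Msc-led and 509 CPM (474 to 547) in the Mylpf-led group, with 52.5% and 95.7% of cells positive. Myog was at 176 CPM (164 to 188) and 1793 CPM (1726 to 1863), with 36.2% and 98.6% positive. Mymk was at 6.48 CPM (4.40 to 9.19) and 490 CPM (455 to 527), with 4.98% and 95.7% positive, and Mymx at 32.0 CPM (27.1 to 37.5) and 517 CPM (481 to 555), with 14.03% and 85.5% positive. The 16 Myf6 UMIs divided into 2 in the Msc-led and 14 in the Mylpf-led group. Nearly every cell of the Mylpf-led group thus held Myod1, Myog and Mymk, while the Msc-led group was divided. The median depths of the groups, 19829 and 20337 UMIs, were close.

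The rest of the library held few molecules of these genes. In the 448 endothelium-like cells, with a median depth of 16336 UMIs, Myf5, Myod1 and Myf6 had 0 UMIs, Myog had 1, and Mymk and Mymx had 2 each, so that no more than 0.446% of cells were positive, and a count of 0 allows up to 0.670%. Over all 7560 cells outside the myoblast-like groups the UMIs were 24 of Myf5, 23 of Myod1, 62 of Myog, 0 of Myf6, 14 of Mymk and 29 of Mymx. Per 100 UMIs inside the myoblast-like groups this is 13.0 (8.15 to 20.02) for Myf5, 1.79 (1.13 to 2.70) for Myod1, 1.76 (1.35 to 2.26) for Myog, 1.83 (0.997 to 3.09) for Mymk and 3.13 (2.08 to 4.52) for Mymx. The proportion outside did not differ between Myod1, Myog and Mymk beyond counting error, and it was higher for Myf5. Outside the myoblast-like groups the 14 Mymk cells held 1 UMI each. The highest Myog level there was in a cardiomyocyte-like group led by Acta2, Vsnl1 and Pnmt, with 12 UMIs in 10 of 349 cells (2.87%, 1.38 to 5.21; 1.79 CPM), against 0.223% (0.00565 to 1.24) in the endothelium-like group. Those groups had median depths of 17544 and 16336 UMIs.

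Cells of day 11 were then ordered by which of the genes they held. At least 1 gene was found in 338 cells (4.31%, 3.87 to 4.78), at least 2 in 172 (2.19%) and all 6 in 1. Cells with several genes were almost confined to the myoblast-like groups, which held 167 of the 172 (97.1%, 93.3 to 99.0) but 232 of the 338 (68.6%, 63.4 to 73.6). The most frequent state was Myod1, Myog, Mymk and Mymx together without Myf5, in 54 cells, of which 52 were myoblast-like. Myf5 alone was found in 48 cells (34 myoblast-like), Myod1 alone in 36 (25) and Myf5 with Myod1 in 21 (20). The next steps were Myf5, Myod1 and Myog in 22 cells, Myod1 and Myog in 21, and Myod1, Myog and Mymx in 15, all of them myoblast-like.

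Cells with Myog, Mymx or Mymk alone were mostly of other kinds. Myog alone was found in 48 cells, of which 4 were myoblast-like, Mymx alone in 23, of which 2 were, and Mymk alone in 11, of which 0 were. A UMI of a late gene with no partner therefore did not mark a myoblast-like cell, and the combinations did. The plot of combinations shows the contrast.

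**Figure D3:**
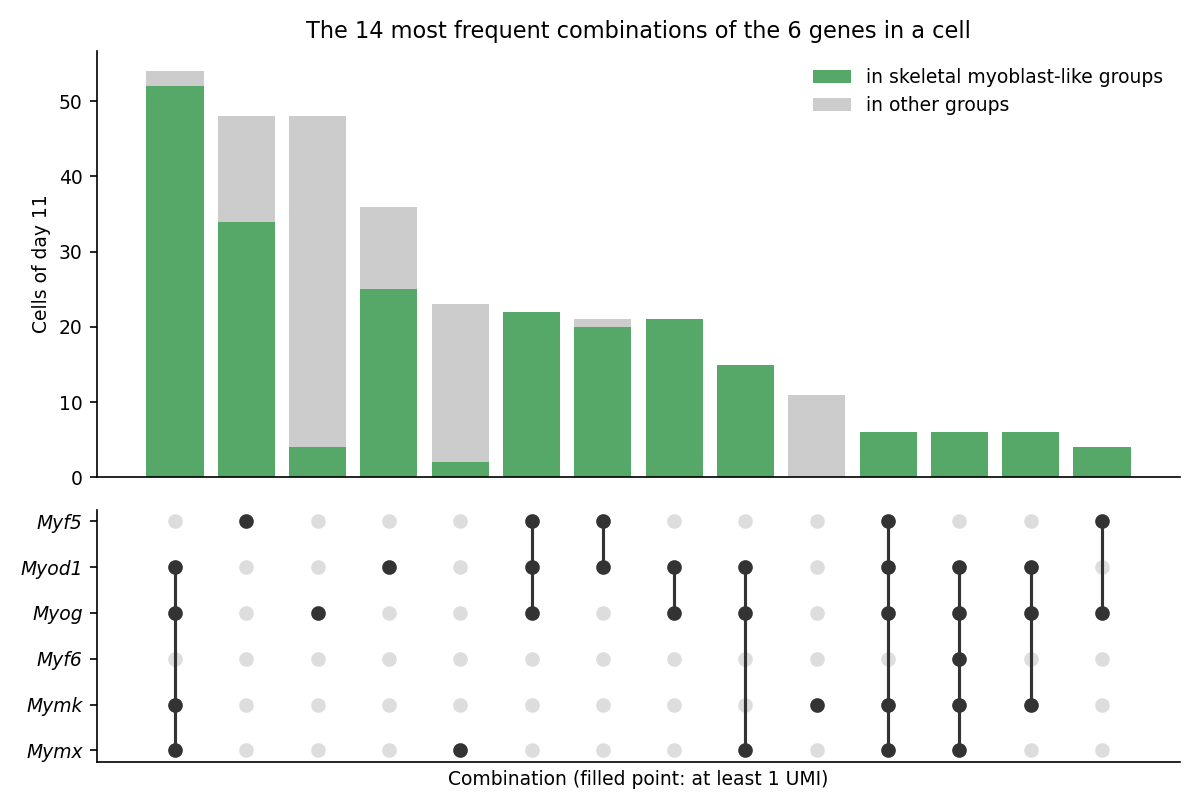
Number of day 11 cells holding each of the 14 most frequent combinations of the 6 genes; green is the part in skeletal myoblast-like groups, grey the part in other groups, and filled points below name the genes held (at least 1 UMI). The bar of Myod1 with Myog, Mymk and Mymx is the highest at 54 cells and nearly all green, and the bars of Myog alone, Mymx alone and Mymk alone are mostly or wholly grey.

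Co-detection was uneven between the members of several pairs. In the 290 myoblast-like cells, 135 of 148 Myog holders had Myod1 (91.2%, 85.4 to 95.2), while 135 of 182 Myod1 holders had Myog (74.2%, 67.2 to 80.4). Of 100 cells with Mymk or Mymx, 97 had Myog (97%, 91.5 to 99.4), while 97 of 148 Myog holders had a fusion gene (65.5%, 57.3 to 73.2). A fusion gene without Myog was thus rare and Myog without a fusion gene was common. Both shares rest on the same 97 cells, and the genes differ in UMIs per holder. Holders of Myog had a median of 16 UMIs of it, those of Mymk 7 and those of Mymx 6. The part of this in the unevenness was not tested. Without Myog, 3 of 142 cells held a fusion gene (2.11%, 0.438 to 6.05).

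All 77 Mymk holders had Myog (a share of at least 95.3% by the exact interval), and 87 of 90 Mymx holders did (96.7%, 90.6 to 99.3). Between the fusion genes, 67 of 77 Mymk holders had Mymx (87.0%, 77.4 to 93.6) and 67 of 90 Mymx holders had Mymk (74.4%, 64.2 to 83.1). These intervals overlap, but both shares rest on the same 67 cells, so their overlap does not settle an order of Mymk and Mymx. In the Msc-led group Mymx was held by 31 of 221 cells and Mymk by 11. In the Mylpf-led group Mymk was held by 66 of 69 cells and Mymx by 59. An order of onset between the fusion genes was not tested.

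Myf5 stood at the other end. Of 94 Myf5 holders in the myoblast-like groups, 54 had Myod1 (57.4%, 46.8 to 67.6), 38 had Myog (40.4%, 30.4 to 51.0) and 13 had a fusion gene (13.8%, 7.57 to 22.5). Of the 196 cells without Myf5, 87 had a fusion gene (44.4%, 37.3 to 51.6), a share beyond the counting error of the former. The 54 cells with both determination factors were 29.7% of the 182 Myod1 holders (23.1 to 36.9). All 11 Myf6 holders had Myod1 and 9 had Myog (81.8%, 48.2 to 97.7), too few cells to place Myf6.

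Over all kept cells the same pairs gave lower shares. Of 196 Myog holders 137 had Myod1 (69.9%, 63.0 to 76.2), and of 196 Myod1 holders the same 137 had Myog, so that this pair was not uneven there. Of 136 fusion gene holders 101 had Myog (74.3%, 66.1 to 81.4), and of 109 Myf5 holders 13 had a fusion gene (11.9%). Most of the 48 cells with Myog alone fall outside the restriction to myoblast-like groups, which was chosen after seeing the data. With each cell thinned to 5000 UMIs, the myoblast-like shares were 71.8% (62.7 to 79.7) for Myod1 among Myog holders and 70% (61.0 to 78.0) for the reverse, so the unevenness of Myod1 and Myog did not show at that depth. Over all kept cells thinned to 3000 UMIs it turned, with Myod1 in 47.5% of Myog holders and Myog in 67.1% of Myod1 holders. For the fusion genes it did show at 5000 UMIs in the myoblast-like groups: 96.2% (89.3 to 99.2) of fusion gene holders had Myog and 65.0% (55.6 to 73.5) of Myog holders had a fusion gene.

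**Figure D4:**
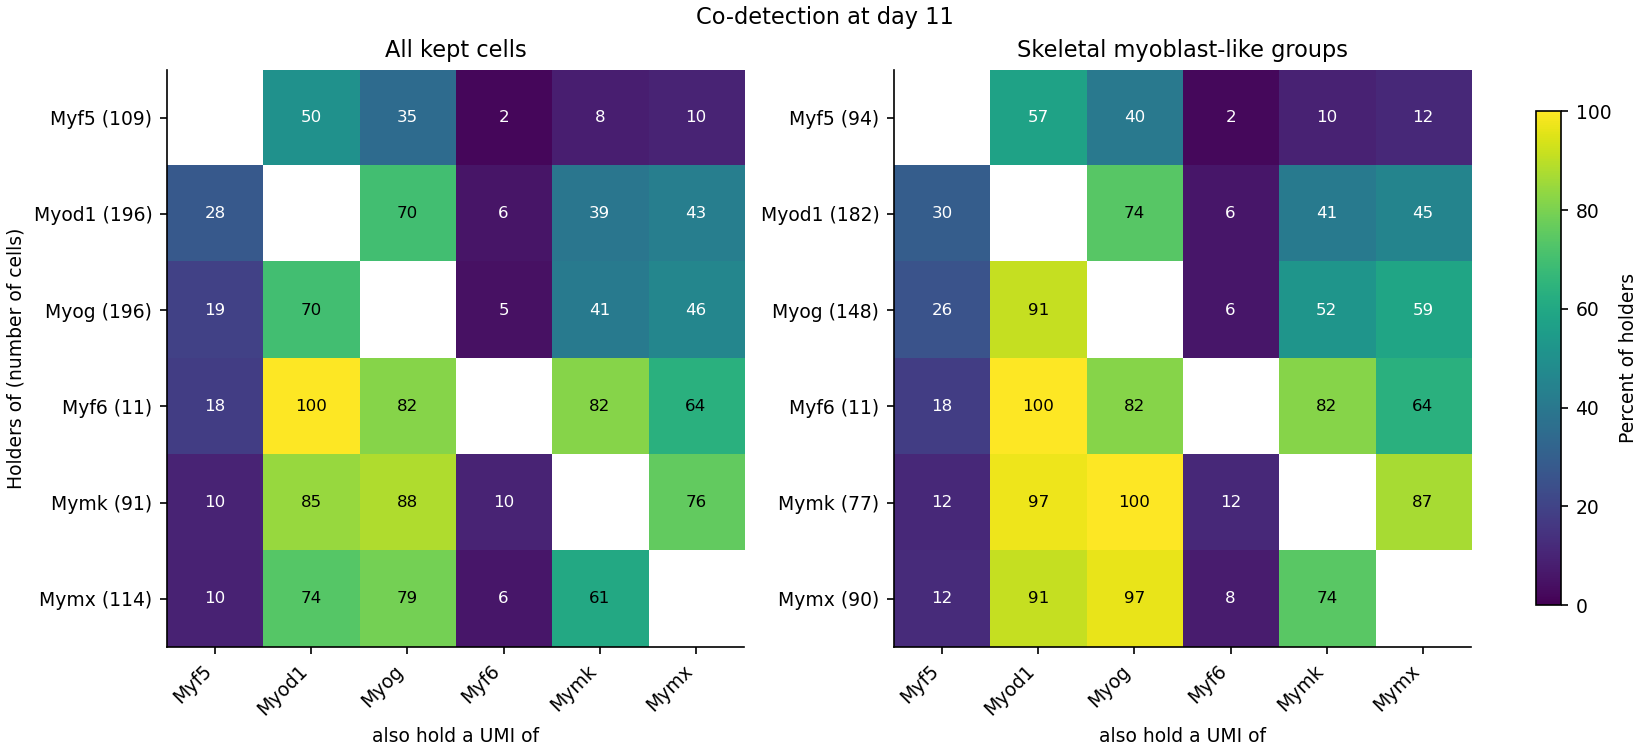
Percent of day 11 cells holding the gene of the row that also hold a UMI of the gene of the column, in all 7850 kept cells (left) and in the 290 skeletal myoblast-like cells (right); the number of holders stands beside each row. In the right panel the rows of Mymk and Mymx are high for Myod1 and Myog, and the row of Myf5 is low for Mymk and Mymx.

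The cells were next put in 3 classes by the most advanced gene they held, and other genes of the myogenic pathway were compared between them. The early class held Myf5 or Myod1 alone or together, the Myog class held Myog without a fusion gene, and the fusion class held Mymk or Mymx. In the myoblast-like groups these were 79, 51 and 100 cells, with median depths of 20220, 23600 and 22794.5 UMIs. Another 58 cells held none of the 6 genes, at a median depth of 16418 UMIs, and 2 held Myf6 without Myog. A gene was counted as higher or lower where the ratio of CPM + 10 between classes reached 2-fold, over genes with at least 20 UMIs in both classes together. The Myog class enters both comparisons, so they are not independent.

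Within the myoblast-like groups the Myog class was close to the early class. Of 8063 genes measured, 12 were higher (0.149%) and 13 lower (0.161%). Of the sarcomere and contraction genes 3 of 13 were higher, and the list was 1.80 times higher (1.69 to 1.91), at 1893 against 1052 CPM. The 3 were Actc1, Ttn and Actn3. Actc1, cardiac actin, which early skeletal muscle also makes, was at 581 against 98.4 CPM (ratio 5.91, 4.99 to 7.03). Ttn, the giant spring of the sarcomere, was at 50.3 against 18.7 CPM. Actn3, a Z-disc protein, had 18 against 3 UMIs and reached 20 UMIs only through the Myog class. With 20 UMIs in the early class alone, 2 of 10 were higher, beside 9 of 6612 genes (0.136%).

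The targets of the regulators gave 1 of 11 higher, Cdkn1a, the cell cycle inhibitor p21, at 98.3 against 18.7 CPM (ratio 5.25, 3.53 to 8.001). The partners of the regulators gave 1 of 9, Rbm24, a muscle RNA-binding protein, at 71.1 against 25.8 CPM. None of the 26 cell cycle genes, the 15 other genes of fusion, the 11 inhibitors of the regulators, the 10 upstream factors of trunk and limb muscle or the 7 upstream factors of head muscle reached 2-fold in either direction. The cell cycle list was at 3518 CPM in both classes. Median log2 ratios were 0.47 for the sarcomere list and 0.01 over all genes measured.

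The fusion class differed from the Myog class in more genes, but the classes also lay in different groups. All 51 Myog cells were in the Msc-led group, while of the 100 fusion cells 68 were in the Mylpf-led and 32 in the Msc-led group. Values over all 100 fusion cells therefore describe the Mylpf-led group to a large part, whose contractile genes set it apart in the clustering. Of 8560 genes measured, 458 were higher (5.35%) and 274 lower (3.2%), with a median log2 ratio of -0.10 over all of them. Most sarcomere genes reached 20 UMIs only through the fusion class, so their count, 30 of 31 higher, is fixed in part by that rule. With the 20 UMIs asked of the Myog class alone, 9 of 9 were higher, beside 129 of 5683 genes (2.27%). The list was at 1893 CPM in the Myog and 39796 CPM in the fusion class (ratio 21.0, 20.2 to 21.9). Mylpf went from 7 to 12603 UMIs (5.59 to 5462 CPM), Tnnc2, fast troponin C, from 4.00 to 2122 CPM, and Myh3, the embryonic myosin heavy chain, from 2.40 to 919 CPM. Acta1, skeletal actin, had 0 UMIs in the Myog class and 3458 in the fusion class. Tnnc1 was at 14.4 and 2595 CPM and Myl1 at 11.2 and 1790 CPM. The sarcomere genes named here all reached 20 UMIs only through the fusion class.

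Of the targets of the regulators 18 of 21 were higher and 0 lower, or 6 of 9 with 20 UMIs in the Myog class alone, and the list was 2.94 times higher (2.85 to 3.03). Mybph, a myosin-binding protein, had 0 and 899 UMIs, and Chrna1, a subunit of the acetylcholine receptor at the neuromuscular junction, 0 and 182. Klhl41 was at 2.40 and 193 CPM, Cdkn1a at 98.3 and 1065 CPM (ratio 10.8, 9.04 to 13.1), Chrng, the fetal receptor subunit, at 2.40 and 74.5 CPM, and Rb1, the retinoblastoma protein that holds cells out of the cycle, at 10.4 and 95.8 CPM. Of the targets named here only Cdkn1a held 20 UMIs in the Myog class, and the others reached that minimum only through the fusion class. Of the partners 6 of 10 were higher. Mef2c, the best known cofactor of the regulators in muscle, was at 11.2 and 654 CPM (ratio 58.4, 34.7 to 107). Mef2a (28.8 and 119 CPM), Mef2d (8.79 and 33.8 CPM), Rbm24 (71.1 and 280 CPM), Vgll2 (40.8 and 120 CPM) and Ldb3 (0 and 77 UMIs) were the others.

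Of the other genes of fusion 3 of 17 were higher and 0 lower, with a median log2 ratio of 0.10. These were Cav3, the muscle caveolin (0 and 109 UMIs), Jam3, a junctional adhesion molecule (24.0 and 135 CPM, ratio 5.62, 3.86 to 8.48) and Ncam1, a cell adhesion molecule (75.1 and 233 CPM). Cav3 reached the minimum of UMIs only through the fusion class. With that minimum asked of the Myog class alone, 2 of 12 were higher and 0 lower. In this list Mymk and Mymx were not counted, since they define the class.

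Cell cycle genes were lower in the fusion class, 18 of 26 by at least 2-fold and 0 higher, against a background of 3.2%. The count was 18 of 26 also with 20 UMIs in the Myog class alone, where 4.7% of genes were lower. The list was at 3518 CPM in the Myog and 1308 CPM in the fusion class (ratio 0.372, 0.355 to 0.389). Ccne1, cyclin E1, was at 126 and 26.9 CPM, Tyms at 188 and 44.6 CPM, Aurkb at 59.9 and 11.3 CPM, Pcna at 129 and 39.9 CPM, Mcm3 at 111 and 33.8 CPM and Mki67 at 178 and 58.5 CPM.

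The genes that act upstream of the regulators were lower as well. The trunk and limb list was at 333 and 148 CPM (ratio 0.445, 0.384 to 0.514), with 3 of 10 lower and 0 higher: Pax7, the muscle stem cell factor (95.1 and 20.8 CPM, ratio 0.219, 0.153 to 0.308), Eya1 (33.6 and 7.80 CPM) and Met, the receptor that migrating limb precursors use (20.8 and 4.77 CPM). In the head list 1 of 6 was lower and 1 higher. Msc was at 155.04 and 31.6 CPM (ratio 0.204, 0.154 to 0.268). Isl1, a factor of the pharyngeal mesoderm, was at 12.8 and 38.1 CPM (ratio 2.98, 1.74 to 5.45). Isl1 reached the minimum of UMIs only through the fusion class. With that minimum asked of the Myog class alone, 1 of 3 genes of the head list was lower and 0 higher. Of the inhibitors of the regulators 3 of 10 were lower, Id2 (205 and 41.2 CPM), Hey1 (52.7 and 7.37 CPM) and Id1 (217 and 104 CPM), proteins that block the regulators or act downstream of Notch, and 1 was higher, Dlk1 (28.0 and 234 CPM).

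Within the Msc-led group alone, with 32 fusion and 51 Myog cells, the classes were closer. Of 7081 genes measured, 61 were higher in the fusion class (0.861%) and 39 lower (0.551%). Sarcomere genes were 8 of 16 higher, with the list at 4742 against 1893 CPM (ratio 2.504, 2.38 to 2.64). Only 9 sarcomere genes reached the minimum of UMIs in the Myog class alone. The others of the 16 reached it only through the fusion class, so the count is fixed in part by that rule. Counts with the minimum asked of the Myog class alone were not made within the Msc-led group. Mylpf was at 43.1 and 5.59 CPM there, Actc1 at 2163 and 581 CPM and Tnnt2, cardiac troponin T, which embryonic skeletal muscle also makes, at 143 and 28.8 CPM. Of the partners 4 of 9 were higher, Mef2c (52.9 and 11.2 CPM), Mef2a, Vgll2 and Rbm24, and of the targets 1 of 11, Rb1 (72.6 and 10.4 CPM). Mylpf, Mef2c and Rb1 reached the minimum of UMIs only through the fusion class. None of the 26 cell cycle genes reached 2-fold in either direction, with the list at 3467 and 3518 CPM (ratio 0.985, 0.940 to 1.03). The lower cell cycle level of the fusion class was therefore that of its Mylpf-led cells. Of the inhibitors 2 of 10 were lower, Id2 (76.3 and 205 CPM) and Hey1 (12.3 and 52.7 CPM), and none of the 10 upstream factors of trunk and limb muscle reached 2-fold, with their list at 238 and 333 CPM (ratio 0.713, 0.598 to 0.847).

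Cardiomyocyte markers were low in all 3 classes within the myoblast-like groups, at 97.2 CPM in the early, 81.5 in the Myog and 606 in the fusion class. In the early and Myog classes 4 of the 11 markers were at 0. Of the 5 measured between the fusion and Myog classes 1 was higher, Sln, a calcium pump regulator of the sarcoplasmic reticulum that skeletal muscle also makes (2 and 1248 UMIs). Sln reached the minimum of UMIs only through the fusion class.

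Over all kept cells, which is how the comparison was first set up, the Myog class took in 44 cells of other groups. Of 9676 genes measured, 215 were higher in the Myog than in the early class (2.22%) and 9 lower (0.093%). Sarcomere genes made 12 of 22 higher, with the list 5.60 times higher (5.42 to 5.79). In that comparison 9 of 11 cardiomyocyte markers were higher too, at 6755 against 1039 CPM, and in the 44 Myog cells outside the myoblast-like groups those markers reached 16478 CPM. Myl2, Myl3 and Myh6 were among them, with Myl2 at 600.4 against 5.47 CPM. Within the myoblast-like groups the sarcomere count was 3 and the cardiomyocyte count 0. The fusion class over the Myog class had 256 of 10145 genes higher (2.52%) and 130 lower (1.28%) in all kept cells, with 22 of 31 sarcomere genes, 14 of 21 targets, 2 of 11 partners and 3 of 19 other fusion genes higher, and 3 of 26 cell cycle genes lower. Markers of other types moved with that comparison as well. Of the cardiomyocyte markers 6 of 11 were lower and 1 higher, at 2960 against 6755 CPM. The 7 epiblast markers were at 159.7 against 3.79 CPM, and at 634 CPM (579 to 693) in the 36 fusion cells outside the myoblast-like groups against 1.73 CPM (0.472 to 4.44) in the 100 inside. Their part in the counts over all kept cells was not tested.

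The same 290 myoblast-like cells were also ordered without using the 6 genes, by the share of their UMIs in the sarcomere list, and divided into 5 bins of 58 cells. Mylpf, Tnnc2 and Acta1, the leading genes of the Mylpf-led group, are in that list. The order is therefore not independent of the grouping or of the sarcomere values given above. The median share of sarcomere UMIs per bin was 0.0479%, 0.0962%, 0.161%, 0.478% and 6.92%. The list reached 502 CPM in bin 1, against 403 CPM in endothelium-like and 446 CPM in mesenchyme-like cells, so the lowest bin lay near the level of these other groups. Myf5 was held by 46.6%, 41.4%, 39.7%, 22.4% and 12.1% of cells from bin 1 to bin 5. Myod1 was held by 34.5%, 50%, 51.7%, 82.8% and 94.8%, and Myog by 13.8%, 24.1%, 29.3%, 89.7% and 98.3%. Mymx was held by 0%, 5.17%, 10.3%, 56.9% and 82.8%, and Mymk by 0%, 0%, 0%, 36.2% and 96.6%.

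Along this axis Myf5 was at 54.2 CPM (41.3 to 69.9) in bin 1 and 11.8 CPM (6.62 to 19.5) in bin 5, Myod1 was present from bin 1, and the step of Myog lay between bins 3 and 4, from 63.1 CPM (50.2 to 78.2) to 812 CPM (765 to 861). Mymx was higher in bin 4 than in bin 3 as well, at 243 CPM (217 to 270.1) against 4.56 CPM (1.67 to 9.93). Mymk was at 0 UMIs in bins 1 to 3, at 73.2 CPM (59.6 to 88.9) in bin 4 and at 523 CPM (483 to 564) in bin 5. Bin 4 thus held 48 Myod1, 52 Myog, 33 Mymx and 21 Mymk cells of 58. The interval of the Mymx share there (43.2% to 69.8%) overlaps that of Mymk (24.0% to 49.9%). Myf6 was at 9 of 58 cells in bin 5 and at 2, 0, 0 and 0 in bins 1 to 4.

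The cell cycle list was at 3347, 3533 and 3638 CPM (3536 to 3743) in bins 1 to 3. It was lower in bin 4, the bin of the Myog step, at 2736 CPM (2650 to 2825), and its larger step followed in bin 5, at 101 CPM. Upstream factors of trunk and limb muscle were at 337, 396, 366, 220 and 97.7 CPM. Median depths ran from 17366.5 UMIs in bin 1 to 22401.5 in bin 3 and 20612.5 in bin 5. With cells thinned to 5000 UMIs the share of Myog cells was 1.85%, 13.8%, 23.2%, 72.4% and 96.4%, and that of Myf5 cells 18.5%, 12.1%, 14.3%, 15.5% and 3.64%, so that at this depth Myf5 was lower only in the last bin.

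**Figure D5:**
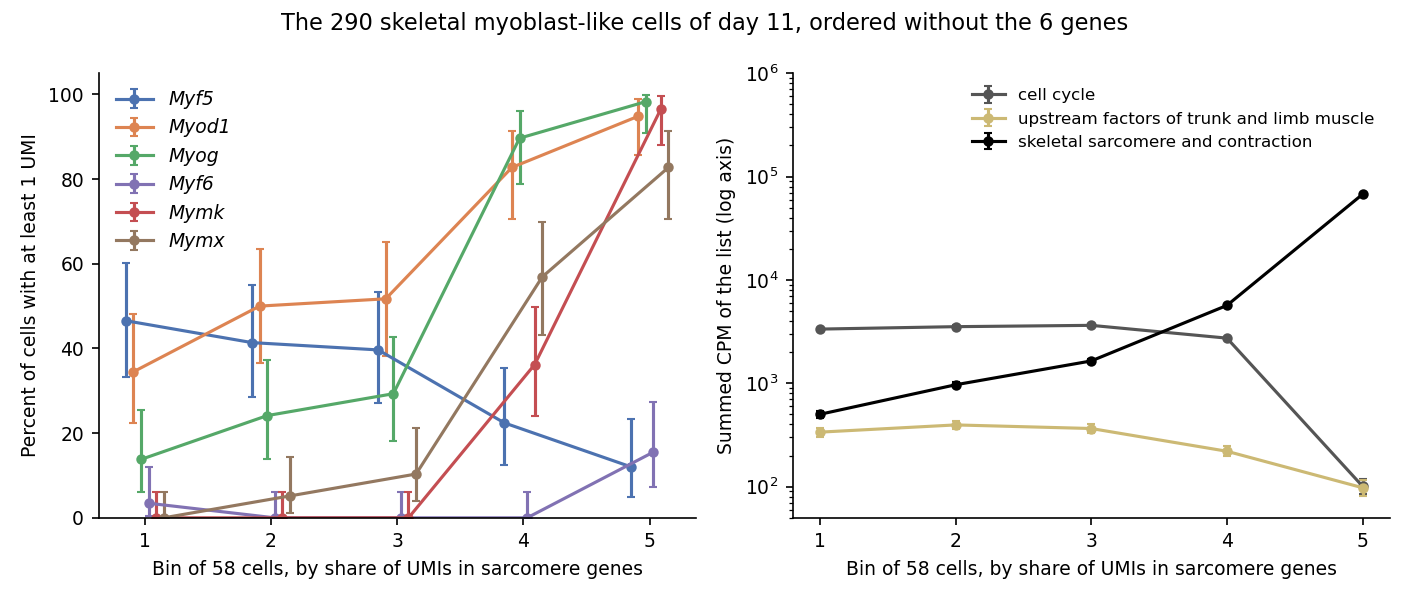
Left, percent of cells with at least 1 UMI of each of the 6 genes in 5 bins of 58 skeletal myoblast-like cells of day 11, ordered by the share of UMIs in sarcomere genes; right, summed level of 3 gene lists in the same bins (CPM, log axis). Bars are exact 95% counting intervals. Myog goes from 29.3% to 89.7% between bins 3 and 4, and the cell cycle list from 2736 to 101 CPM between bins 4 and 5.

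The genes whose levels most resembled those of the 6, apart from Myf6, across the 7850 cells of day 11 were listed by Pearson correlation of log-normalised counts. Myf6, held by 11 cells, was below the 30 positive cells asked of a gene. The points are cells of 1 library that share depth, and the values are a description. Myod1 and Myog were each other's closest match (r = 0.86), followed for Myog by Mymx (0.83), Mymk (0.81), Neb (0.81), which sets thin filament length, and Cdh15 (0.76), the M-cadherin of muscle precursors. For Myod1 the next were Cdh15 (0.75), Neb (0.75), Mymk (0.73) and Mymx (0.72). Mymk was closest to Myh3 (0.84), Il17b (0.82), Myog (0.81), Tnnc2 (0.81) and Mylk4 (0.80), and Mymx to Myog (0.83), Mymk (0.74), Myod1 (0.72), Neb (0.70) and Cdh15 (0.67). Myf5 stood alone in this respect, with Msc (0.42), Moxd1 (0.33) and Pitx3 (0.32) as the genes above 0.3 and none of the other 5 genes among them. Its holders had a median of 1 UMI of it, against 6 for Myog. The part of this in the lower r was not tested.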

How the data were processed

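Droplet libraries of gastruloids (10x Chromium 3′ kit v3.1, 1 per day) were sequenced, and the deposited matrices hold UMI counts per gene and cell that the authors made with Cell Ranger. The submitters' processing notes name version 3.1.0 and the build mm10; the matrix headers name 3.1.0 for days 4, 5 and 6 and 6.0.1 for day 11, a difference that cannot be told apart from the day. Per the labels, about 10000 cells were loaded per library; the matrices hold 7324, 7794, 6628 and 9584 barcodes with 227398362, 236714826, 182150138 and 149169498 UMIs. Libraries share between 5 and 23 barcodes. The authors' 10x chemistry gives counts of molecules, so intervals (exact Poisson, binomial and conditional binomial, 95%) cover counting error only.

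Cells were kept with more than 200 genes, under 20% mitochondrial and over 5% ribosomal counts and a log10 UMI total no further than 3 scaled MADs from the library's median. The 8% of cells with the highest simulated-doublet scores were removed, since the deposited matrices do not mark doublets; 6555, 6457, 5254 and 7850 cells remained. Each library was clustered on 2000 variable genes without the 6 genes (30 components, 20 neighbours, Leiden resolution 1, leidenalg 0.10.2, Python 3.11.15, scipy 1.17.1). A group was named "-like" where at least 3 markers of 1 type, and more than of any other, were raised 2-fold in at least 10% of its cells; names rebuilt this way may differ from the study's. A cell holds a gene at 1 UMI or more. Lists were compared on CPM + 10 at 2-fold for genes with 20 or more UMIs; the step was tested on simulated data. Named were the 6 genes, up to 6 genes per list with the largest ratios among those past 2-fold plus any needed for a count, the 3 leading genes of a group, and up to 5 genes per member with r of at least 0.3. The 6 genes, lists and rules were chosen with earlier results of these data known. The alternatives were other cell filters, thinning to 3000, 5000 or 10000 UMIs, a minimum of 2 UMIs, other clusterings, other list settings and another axis. Positions come from GENCODE on GRCm38 and promoter windows from RefSeq.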

Additional observations from a re-analysis of the deposited data

How the results depend on the processing

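With 1 library per day no replicate could be left out. No paired analysis was possible because each day has 1 library. Of the alternative values 94 stayed within the counting interval of the value reported, or within 1.5 times for counts of genes. The other 75 moved further, and the causes were not tested. A reversal could be scored only for the log2 ratios along the axis, where 0 reversed. The turn of the Myod1 and Myog shares at 3000 UMIs, given below, is therefore not scored as one. The day 11 CPM of Myf5, Myod1, Myog, Mymk and Mymx was 1.49, 9.46, 25.9, 5.67 and 6.99 with no limit but more than 200 genes. For Myod1, Myog, Mymk and Mymx it was 10.3, 28.3, 6.22 and 7.71 with no upper limit on UMIs, and 10.5, 28.6, 6.18 and 7.53 with doublets left in. Thinned to 3000 UMIs the levels of Myf5, Myod1, Myog, Mymk and Mymx were 1.25, 6.61, 20.4, 4.71 and 5.06 CPM. With Myf6 after Myog, they were 1.22, 7.68, 19.9, 0.0797, 4.46 and 5.82 at 5000 UMIs and 1.19, 7.49, 20.6, 0.0773, 4.37 and 5.51 as a mean over cells. Myf5 at day 6 was 0.444 CPM at 3000 UMIs, and Mymx at day 5 was 10.8, 11.0 and 10.4 CPM at 3000, 5000 and 10000 UMIs and 10.9 as a mean over cells.

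The percent of day 11 cells with any of the 6 genes was 2.55 at 2 UMIs or more and 2.27, 2.78 and 4.93 when thinned to 3000, 5000 and 10000 UMIs. Myod1 among Myog holders was 87.4% at 2 UMIs, 47.5% at 3000 UMIs (67.1% for the reverse) and 91.2% within the skeletal myoblast-like groups. Myog among fusion gene holders was 94.5% at 2 UMIs, 84.7%, 84.4% and 85.7% when thinned and 97% within those groups. A fusion gene among Myog holders was 67.7% at 2 UMIs, 58.7% at 10000 UMIs and 65.5% within the groups. Myf5 among Myod1 holders was 15.2% at 2 UMIs and 3.53%, 9.68% and 16.6% when thinned. The early class was 25.1% of cells with a gene at 3000 UMIs, and the Myog class 20.5% at 2 UMIs, 33.7% at 3000 UMIs and 21.98% within the groups. Genes higher in the Myog than the early class were 3 for the sarcomere within the groups, and 4 at 2 UMIs and 0 within the groups for cardiomyocyte markers. Cell cycle genes lower in the fusion than the Myog class were 16 at 2 UMIs and 18 within the groups. With the cell cycle as the axis, the log2 ratio of CPM + 1 between its ends was 2.01 for Myod1, 3.09 for Myog, 5.80 for Mymk and 3.33 for Mymx, against 3.21, 6.51, 9.03 and 8.84 with the sarcomere axis. Within the Msc-led group alone, the sarcomere and cardiomyocyte genes higher in the Myog than the early class were 3 and 0. That group holds all early and Myog cells of the myoblast-like groups. These counts therefore could not differ from those within the groups, although both settings are counted among the alternatives. The sarcomere genes and targets higher in the fusion than the Myog class were 8 and 1 there, and the cell cycle genes lower were 0. With 20 UMIs in the Myog class alone, the last 3 counts were 9, 6 and 18 in the myoblast-like groups. That minimum was not applied within the Msc-led group. Values within these groups, and that minimum, were added after the data were seen.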
